A study of Homo sapiens with 16 samples.

Results

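Described here are 1875 stretches of RNA, given by their place in the human genome, that had a peak in each of the 4 deposited lists named without arsenite (WT-1, WT-2, K512R-1 and K512R-2) and in none of the 4 lists named with it (WT-AS-1, WT-AS-2, K512R-AS-1 and K512R-AS-2). They are called AS-absent regions below. Overlapping peaks of the 8 lists (1 bp or more, strand by strand) gave 36802 regions in all, of which the AS-absent regions are a part. They were chosen by the presence of peaks in the lists, so their presence pattern is a description and was not tested. Of the 16479 regions found in all 4 lists named without AS, 11.4% met the rule.

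The lists come from RNA immunoprecipitation and sequencing (RIP-seq) with an anti-Myc antibody in H1299, an established human lung carcinoma line that stably expressed Myc-tagged PABPC1. The protein was either wild type (WT) or carried K512R, in which a lysine is replaced by arginine, and the cells had either no treatment or sodium arsenite (AS) at 500 µM. The labels do not say whether the cells' own PABPC1 was removed, whether a line was 1 clone, how long the treatment lasted or whether replicates were separate cultures. Of the 16 samples, 8 had a list that was used here, and the lists form 4 pairs of replicates. For the other 8 samples, all recorded as K512R, no list was used here, so by the record none of the lists is of K512R cells.

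What a list stands for depends on which label is read. For WT-1 and WT-2 name and sample record agree on untreated WT cells, and the record adds that the RNA was the immunoprecipitate (IP). The record gives WT-AS-1 and WT-AS-2 as input RNA from WT cells without treatment. It gives K512R-1 and K512R-2 as IP, and K512R-AS-1 and K512R-AS-2 as input, from arsenite-treated WT cells. For 6 of the 8 lists, then, name and record differ, and neither could be shown to be the right one. The series as a whole has 2 IP samples each of WT, WT-AS, K512R and K512R-AS, the same conditions and numbers as the list names. By the names, AS-absent regions had peaks without arsenite and none with it, in WT and in K512R cells. By the record, they had peaks in the IP and none in the input, with and without arsenite. Lists are given by their names below, and no direction of an arsenite effect is drawn from them.

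PABPC1 is the main cytoplasmic poly(A)-binding protein. It coats the poly(A) tails of mRNAs, takes part in their translation and turnover, and gathers with stalled mRNAs in stress granules, cytoplasmic bodies that arsenite and other stressors induce. SUMO proteins are attached to lysines, which an arginine cannot replace as an acceptor, and the series title concerns SUMO modification of PABPC1 and mRNAs held in these granules.

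The lists held 19953 to 25111 peaks, and their read depth is unknown because they give no counts. Each peak carries a score from the authors' peak caller, from 13.02 to 3233.06 in every list, with no stated unit. Between 8.17% and 11.0% of a list's peaks scored 3100 or more, so the strongest are tied or nearly so. Scores were therefore ranked within each list, from 0 to 100, and a region's poorest percentile is the lowest of its percentiles over the 4 lists named without AS. Positions are those of hg19, counted from 1. No gene annotation of that build was used, so regions are given by position and not by gene, and the line's marker genes were not checked.

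AS-absent regions lay in 1421 loci, a locus being a run of such regions on 1 strand with gaps of at most 10 kb. In 1122 loci (79.0%) the region stood alone, 204 loci held 2 and 95 held 3 or more. Those 95 loci held 345 regions, 18.4% of the total. The number of loci with 3 or more was 54 with gaps of at most 5 kb, 168 with gaps of at most 50 kb, and 63 with each list cut to the 19953 peaks of best score, the length of the shortest list. A locus may hold more than 1 gene, and a long gene can fall into several loci. Regions with the reverse pattern, in all 4 lists named with AS and in none named without, numbered 1106, or 7.68% of the 14393 regions found in all 4 lists named with AS. They formed 887 loci, of which 730 held a single region and 42 held 3 or more. The 14604 other regions of all 4 lists named without AS, a larger set, formed 8883 loci in the same way. Of those loci, 67.1% held a single region, and 37.3% of the regions lay in loci of 3 or more.

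**Figure D1:**
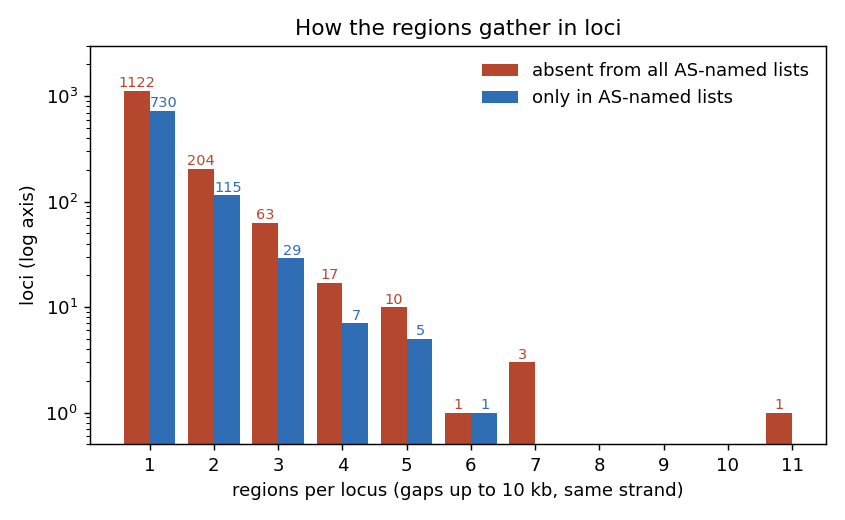
Number of loci (log axis) by the number of regions they hold, for AS-absent regions (red) and for regions found only in the lists named with AS (blue), with the count above each bar. Most loci of either kind hold 1 region, and the largest hold 11 and 6.

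The loci named here hold the most AS-absent regions, and the last 3 of the 8 are those with the largest summed width among 10 loci with 5 regions each. The locus with the most was on the plus strand of chromosome 9, from 124519292 to 124547788 (28497 bp). It held 11 AS-absent regions and 2 more regions, which had peaks in 3 and in 2 of the lists named without AS. None of its 13 regions had a peak in a list named with AS. The median score of its 11 regions was 38.1 in WT-1, 77.6 in WT-2, 151 in K512R-1 and 160.4 in K512R-2. The best-scored region of the locus, at 124522164 to 124522718, had scores of 644, 235, 782 and 493 in the same order. The region farthest 3', at 124545074 to 124547788, was the widest at 2715 bp and scored 38.1, 93.25, 50.8 and 292. Scores in this locus were thus modest, and the absence covered the whole run of peaks.

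A locus on the minus strand of chromosome 20, from 48249483 to 48273239, had the same form. It held 6 AS-absent regions and 2 regions found in 3 lists named without AS, and no peak of a list named with AS. Its widest region, 3514 bp at the 3' end (48249483 to 48252996), scored 509 in WT-1, 898 in WT-2, 658 in K512R-1 and 1376 in K512R-2. The region at its 5' end, at 48273105 to 48273239 (135 bp), scored 279, 385, 232 and 261. All 4 lists thus gave both ends of the locus a score above the median score of these regions as a whole.

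On the minus strand of chromosome 19, from 3630179 to 3664912, 7 AS-absent regions alternated with other regions of all 4 lists named without AS. Of the 13 regions in the span, 5 had a peak in a list named with AS, and all of these peaks were in K512R-AS-1 (2 regions) or K512R-AS-2 (4 regions). Neither WT-AS-1 nor WT-AS-2 had any peak in the span. The peaks of K512R-AS-1 and K512R-AS-2 there had scores from 13.11 to 24.41, close to the lowest score of a list. The widest AS-absent region, at 3630179 to 3633167 (2989 bp), was the one farthest 3' and scored 531, 270.1, 1049.6 and 1094 in WT-1, WT-2, K512R-1 and K512R-2.

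On the plus strand of chromosome 22, from 38308358 to 38338465, 7 AS-absent regions lay among 4 regions that also had a peak in some or all lists named with AS, and 1 region found only in WT-AS-1. Among the 4, the region at 38321668 to 38322050 had a peak in all 8 lists. Its score was 2971 in WT-1 and 3100 in WT-2, K512R-1 and K512R-2, and 71.95 in WT-AS-1, 102 in WT-AS-2, 172 in K512R-AS-1 and 135 in K512R-AS-2. Every list named with AS thus gave it a lower score than every list named without. The best-scored AS-absent region of the locus, at 38323418 to 38323833, scored 1039, 1316, 1289 and 1746. The region at its 3' end, at 38336716 to 38338465 (1750 bp), scored 415, 225, 788 and 593.

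The chromosome 1 locus from 16043202 to 16061264 (plus strand) held 7 AS-absent regions among 11, and 3 of the 11 had a peak in a list named with AS. Its best-scored AS-absent region in WT-1, at 16046229 to 16046415 (187 bp), scored 603, 585, 760.1 and 995 in WT-1, WT-2, K512R-1 and K512R-2. On the minus strand of chromosome 12, from 109176466 to 109200170, 5 AS-absent regions and 1 region of 2 lists had no peak in any list named with AS. The region at its 3' end, at 109176466 to 109183020, was 6555 bp wide and scored 1740 in WT-1, 2193 in WT-2 and 3100 in both K512R-1 and K512R-2. Loci on chromosome 1 from 9775907 to 9789172 and on chromosome 16 from 30975933 to 30995983, both on the plus strand, held 5 AS-absent regions each. Within these spans no region had a peak in a list named with AS. Just outside, joined by gaps of at most 10 kb, the former had 1 region with such a peak and the latter 2. In the former the widest region (9786967 to 9789172, 2206 bp) was the one farthest 3', with scores of 127, 53.3, 372 and 125. In the latter the widest region (30990466 to 30991515, 1050 bp) lay inside the locus and scored 157, 126, 235 and 245.

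**Figure D2:**
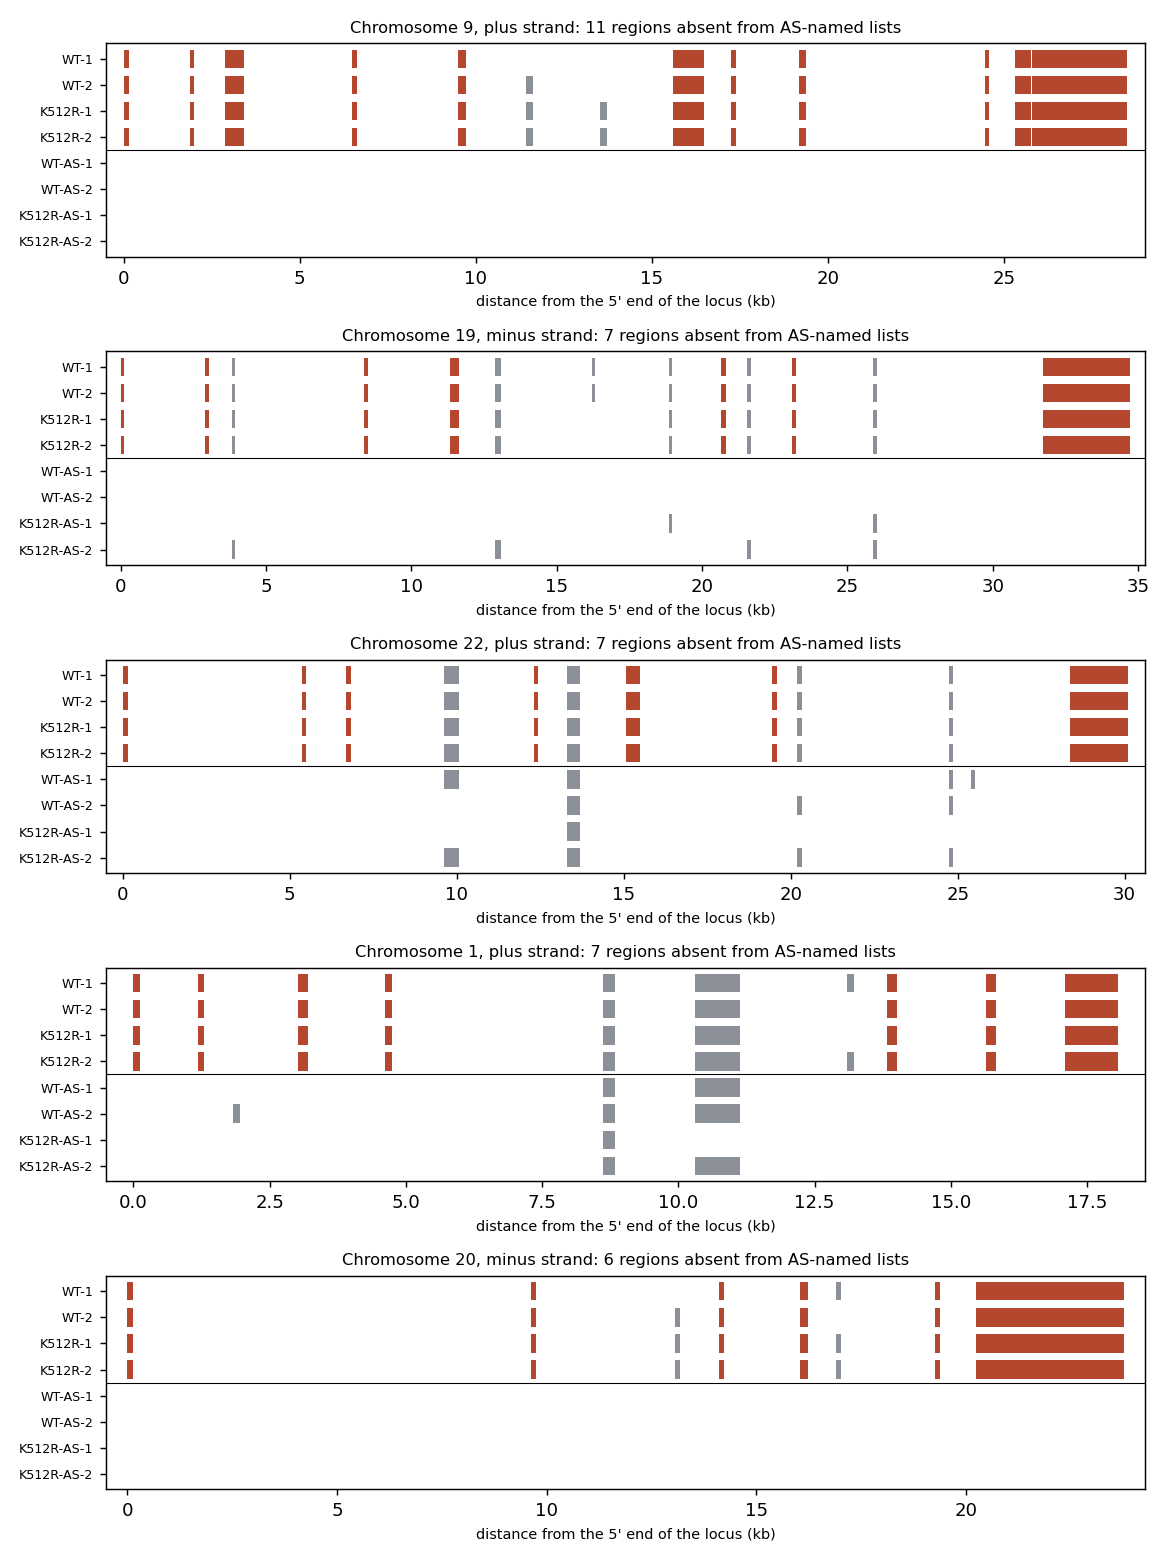
Maps of the 5 loci with the most AS-absent regions, drawn to scale from their 5' end in kb, with 1 row per list, and with the narrowest regions widened slightly so that they can be seen. Red blocks are AS-absent regions and grey blocks are other regions, each drawn at its joined extent where the list had a peak. The 4 lower rows, the lists named with AS, are empty on chromosomes 9 and 20 and hold a few blocks in the other loci.

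In 42 of the 95 loci with 3 or more AS-absent regions (44.2%) the widest region was the one farthest 3', and in 24 (25.3%) it was the one farthest 5'. Among loci built in the same way from the other regions of all 4 lists named without AS, these shares were 47.7% and 25.1% of 1320. The 2 sets thus had like shares, and the difference was not tested. Among the 42 loci of regions found only in the lists named with AS, it was the one farthest 3' in 14 and farthest 5' in 17.

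Whether a whole run of peaks lacked the lists named with AS was counted over runs of any regions with gaps of at most 10 kb on 1 strand. Of 1326 such runs that held an AS-absent region, 625 had no peak of any list named with AS, and they held 782 AS-absent regions (41.7%). The other 1093 AS-absent regions lay in runs in which at least 1 region had such a peak, and 340 runs held a region found in all 8 lists. Of the 625 runs, 105 held 2 or more AS-absent regions and 26 held 3 or more. In all, 9239 runs held a region of all 4 lists named without AS, and the same 625 runs are 6.76% of them. By the rule, a region of all 4 lists in a run without a peak named with AS is AS-absent. Of the 1666 runs with 3 or more regions of all 4 lists, the same 26 (1.56%) had no peak named with AS. These 26 included the loci on chromosomes 9, 20 and 12 named above. They also included runs of 5 AS-absent regions on chromosome 9 from 96398693 to 96439245 (plus strand) and chromosome 22 from 19363154 to 19396116 (minus strand). Further runs of 5 were on chromosome 6, from 157488174 to 157525130 (plus strand) and from 17804592 to 17837321 (minus strand).

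AS-absent regions tended to lie next to each other. Of the 1211 that had another region of all 4 lists named without AS within 10 kb on their strand, the nearest was also AS-absent for 581 (48.0%). For the other regions of all 4 lists, the nearest neighbour was AS-absent in 627 of 8982 (6.98%). This share fell in steps with the number of lists named with AS that held the region, from 30.7% for 1 list through 17.2% for 2 and 11.3% for 3 to 3.17% for 4. Within bins of the poorest percentile, the share ranged from 36.0% to 52.5% for AS-absent regions and from 3.53% to 8.59% for the others, so the 2 ranges did not meet. Neighbours can belong to 1 transcript, so these shares describe the lists and carry no p-value.

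A few AS-absent regions scored near the top of all 4 lists. In 8 regions every one of the 4 lists gave 3100 or more, against 1537 (10.5%) of the 14604 other regions. The widest of the 8 spanned 3305 bp of the plus strand of chromosome 17, from 80559179 to 80562483, with a score of 3225 in WT-1 and 3100 in the other 3 lists, and the nearest region with a peak in a list named with AS was 13740 bp away. On chromosome 19 the plus strand held 3 of them, at 13248961 to 13251961 (3001 bp), at 42794385 to 42795618 (1234 bp) and at 1980148 to 1981336 (1189 bp). The first of these lay 1993 bp from a region found in all 8 lists. Another pair was on chromosome 16, minus strand, at 30368422 to 30369894 (1473 bp) and 21414429 to 21415556 (1128 bp), the latter 430327 bp from the nearest region with a peak named with AS. The last were on chromosome 9 at 139734774 to 139735639 (plus strand, 866 bp) and on chromosome 12 at 92539164 to 92539673 (minus strand, 510 bp), 835 and 940 bp from such a region.

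The next in rank were 3 regions of the minus strand and 1 of the plus strand. The region of 140 bp on chromosome 8 (101727690 to 101727829) scored 3100 in WT-1, WT-2 and K512R-2 and 2551 in K512R-1. The region of 231 bp on chromosome 1 (1274962 to 1275192) scored 2175, 2719, 2391 and 2641 in WT-1, WT-2, K512R-1 and K512R-2, and lay 1398 bp from a region with a peak named with AS. The region of 1002 bp on chromosome 14 (91006932 to 91007933) scored 2168, 2975, 2619 and 3100. On the plus strand of chromosome 19, a region of 2215 bp (41765458 to 41767672) scored 2137 in WT-1 and 3100 in the other 3. All 4 lists thus placed these regions high.

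Such regions were the exception, and most AS-absent regions scored low. Their median score was 64.9 in WT-1, 71.0 in WT-2, 103.6 in K512R-1 and 127 in K512R-2. For the other regions of all 4 lists the medians were 295, 349, 317 and 375. The middle of the distribution, from the lower to the upper quartile, ran from 32.7 to 144 in WT-1 and from 55.8 to 290.4 in K512R-2, against 97.8 to 1121 and 129 to 1292 for the others. A typical AS-absent region, the median by poorest percentile, was on the minus strand of chromosome 17 at 17740041 to 17740325 and scored 38.05, 142, 109 and 99.85 in WT-1, WT-2, K512R-1 and K512R-2. The poorest, on chromosome 11 at 111839237 to 111839362 (plus strand), scored 13.02 in WT-2, the lowest value of the list, and 33.2, 44.2 and 75.02 in WT-1, K512R-1 and K512R-2.

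**Figure D3:**
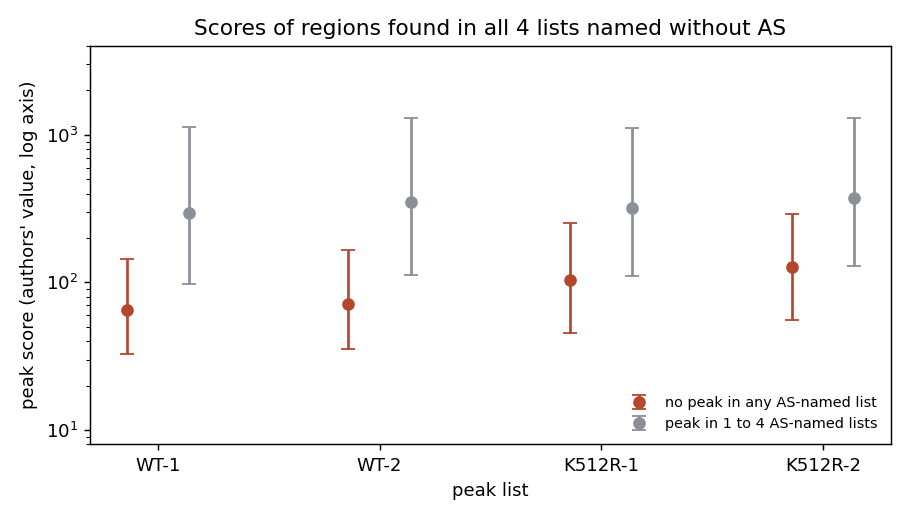
Peak score (log axis) in the 4 lists named without AS, as the median (point) and quartiles (bars), for AS-absent regions (red) and for regions of the same 4 lists that also had a peak in 1 to 4 lists named with AS (grey). The red medians lie between 64.9 and 127 and the grey ones between 295 and 375.

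The share of AS-absent regions fell as the score rose. Among regions of all 4 lists named without AS whose poorest percentile was 10 or less, 30.2% were AS-absent (461 of 1528). The share was 25.6% for percentiles up to 20, 16.7% up to 40, 9.47% up to 60, 3.97% up to 80 and 1.15% above that (40 of 3484). Of the regions just outside the rule, those with a peak in 1 list named with AS resembled the AS-absent ones in score. The 993 regions with a peak in 1 of the 4 lists named with AS had a median poorest percentile of 27.5, against 23.0 for AS-absent regions and 64.5 for regions in all 8 lists. In that 1 list their median score was 20.1 to 23.7 and their median percentile 9.23 to 13.2, so the peak that kept them out was mostly weak. On the other side, 1366 regions had peaks in 3 of the lists named without AS and in none named with AS. These scored lower than AS-absent regions, with a median poorest percentile of 8.96 over the 3 lists that held them. The list that lacked them was WT-1 for 533, WT-2 for 466, K512R-1 for 215 and K512R-2 for 152, and K512R-1 and K512R-2 are the longest lists.

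Wide regions made up a larger share of AS-absent regions than of the other regions of all 4 lists. Width here is the summed width of a region's peaks in a list, averaged over the 4 lists named without AS. The median was 199 bp for AS-absent regions, 200 bp for the other regions of all 4 lists and 205 bp for regions in all 8 lists. Over 1000 bp, however, the shares parted, with 303 AS-absent regions (16.2%) against 8.05% of the other regions of all 4 lists, and over 2000 bp with 139 (7.41%) against 1.81%. The share of AS-absent regions was 11.4% up to 200 bp (942 of 8264), 8.87% at 200 to 500 bp, 10.5% at 500 to 1000 bp, 15.3% at 1000 to 2000 bp, 32.8% at 2000 to 4000 bp (122 of 372) and 53.1% over 4000 bp (17 of 32). With all scores together it thus did not rise steadily, and exceeded that of the narrowest regions only over 1000 bp. With a poorest percentile above 50 it was 2.27% up to 200 bp, 2.59% at 200 to 500 bp, 7.81% at 1000 to 2000 bp and 20.2% at 2000 to 4000 bp. With one of 50 or less it was 18.6%, 17.5%, 28.1% and 58.1% in the same width ranges. Among AS-absent regions with a poorest percentile above 80, the median width was 1263.5 bp, against 288 bp for the other regions of that range.

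**Figure D4:**
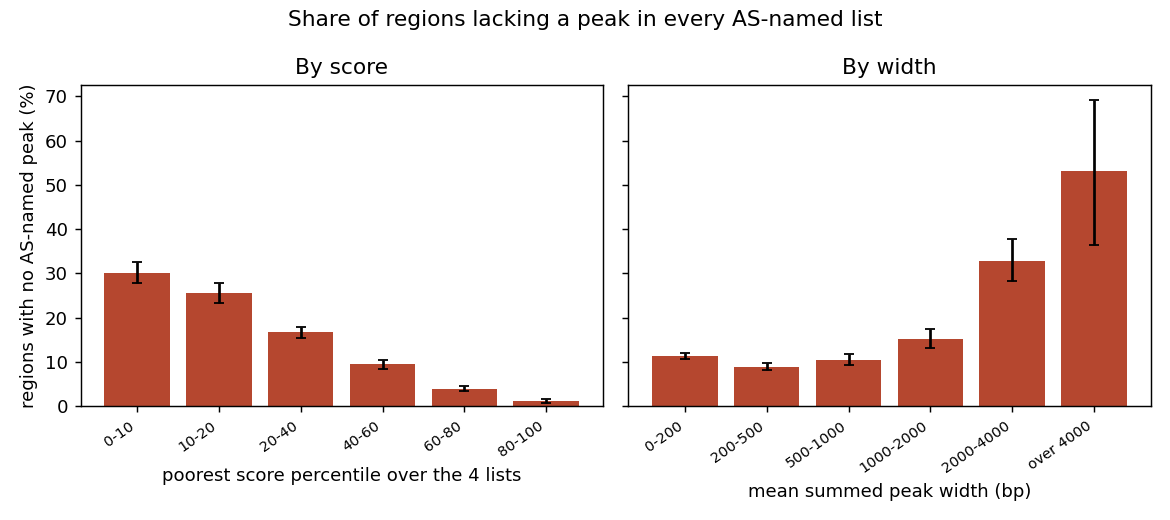
Percent of the regions of all 4 lists named without AS that had no peak in any list named with AS, by poorest score percentile (left) and by mean summed peak width in bp (right). Black bars are 95% Wilson intervals, which cover counting error only. The share falls from 30.2% to 1.15% with the score and is highest, 53.1%, over 4000 bp.

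By joined extent, from the first to the last base of a region, the longest AS-absent region was 7285 bp on chromosome 22 (plus strand), from 46631030 to 46638314. Its summed peak width was smaller, 4292.5 bp on average, and it scored 65.7, 51.6, 120.2 and 54.2 in WT-1, WT-2, K512R-1 and K512R-2. The next by joined extent, on chromosome 10 at 72181472 to 72188374 (plus strand, 6903 bp), scored 848, 1971, 3100 and 3100, with a region of all 8 lists 1616 bp away. On chromosome 14 a region at 89622516 to 89629313 (minus strand, 6798 bp) scored 678, 1040.2, 2368 and 1680.1. On chromosome 3 a region at 51428699 to 51435336 (plus strand, 6638 bp) scored 2174 and 1990 in WT-1 and WT-2 and 732 and 275 in K512R-1 and K512R-2. On chromosome 12 a region at 122626238 to 122631894 (plus strand, 5657 bp) scored 109.7 and 172 in WT-1 and WT-2 and 931 and 1066 in K512R-1 and K512R-2. The region on chromosome 3 was thus lower in both K512R lists than in both WT lists, and the regions on chromosomes 10, 14 and 12 were higher.

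The comparison of K512R-1 and K512R-2 with WT-1 and WT-2 was not used by the rule. By the names it sets K512R against WT without arsenite, and by the record AS against no treatment in the IP of WT cells. The median percentile of AS-absent regions was 34.0 in WT-1, 34.2 in WT-2, 44.2 in K512R-1 and 47.4 in K512R-2, so the lists did not overlap. The means were 45.8 ± 2.25 and 34.1 ± 0.146 (SD, n = 2 each), a difference of 11.7 points (p = 0.333, exact 2-sided permutation test, the smallest p that 2 lists against 2 can give). For the other regions of all 4 lists the difference was 3.13 points. At equal list lengths of 19953 peaks the difference was 6.82 points for AS-absent regions (n = 1402) and -0.74 for the others (n = 12985). The cut changed the regions compared and their ranks as well as the list lengths, so the change was not assigned to length alone. Both K512R percentiles lay above both WT percentiles in 929 AS-absent regions (49.5%), where 40.8% of all 16479 regions did, and below them in 131 (6.99%), where 11.3% did. Whether AS-absent regions differ from the others in this was not tested.

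A region found in all 8 lists lay within 10 kb on the same strand for 377 AS-absent regions (20.1%). For the other regions of all 4 lists named without AS, many of them in all 8 lists themselves, the share was 50.4%. No region was counted as its own neighbour here, and these shares describe the lists and were not tested. Counted the same way, it was 26.9% for regions with a peak in 1 list named with AS, 36.7% for 2 and 40.5% for 3. The gap held within bins of the poorest percentile, with 16.5% against 34.96% in the lowest bin and 30.0% against 60.2% in the highest. A region with a peak in any list named with AS lay within 10 kb of 51.1% of AS-absent regions and within 1 kb of 6.77%. For the others, which hold such a peak themselves, a further region of this kind did so for 70.6% and 10.7%. Where a region of all 8 lists was within 10 kb of an AS-absent one, it lay only on the 5' side in 212 cases (56.2%), only on the 3' side in 130 (34.5%) and on both in 35. For regions with a peak in 1 to 3 lists named with AS, these shares were 43.9%, 33.3% and 22.7%.

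Those neighbours kept a peak in every list, but at a lower score in the lists named with AS. The 421 regions of all 8 lists within 10 kb of an AS-absent region had median scores of 619 in WT-1, 733 in WT-2, 803 in K512R-1 and 943 in K512R-2. In the lists named with AS the medians were 128 in WT-AS-1, 125 in WT-AS-2, 143 in K512R-AS-1 and 151 in K512R-AS-2. As percentiles, they were 74.9 to 80.4 without AS and 45.7 to 48.5 with AS. The 10451 regions of all 8 lists farther away had median percentiles of 69.9 to 72.6 and 67.3 to 69.2. In 325 of the 421 (77.2%) every percentile in the lists named with AS lay below every one in the lists named without, where 29.6% of all 10872 regions of all 8 lists did. The reverse held for 6 of the 421 (1.43%), where 17.3% of all did. This is the contrast that chose the AS-absent regions beside them, and neighbours can share a transcript, so it is given as a description.

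**Figure D5:**
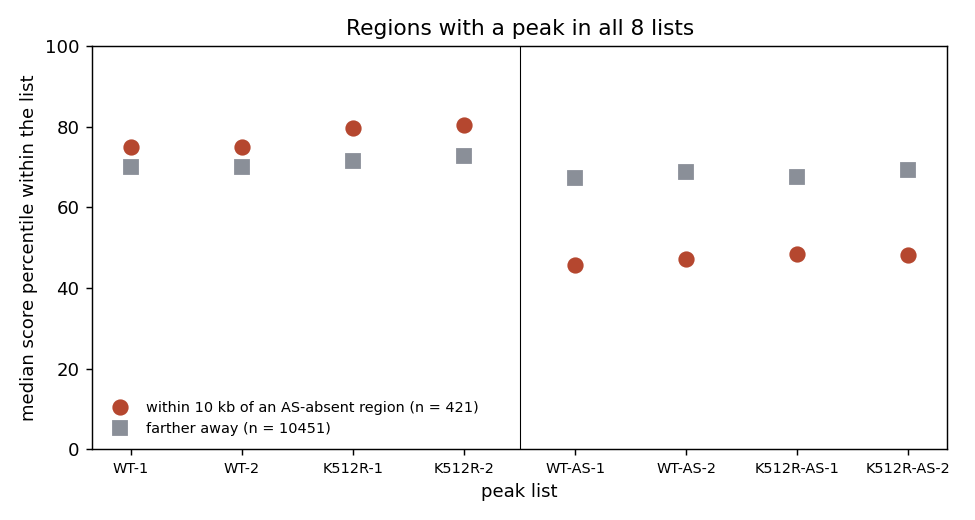
Median score percentile in each list of regions with a peak in all 8 lists, for the 421 within 10 kb of an AS-absent region (red circles) and the 10451 farther away (grey squares). The red medians are at 74.9 to 80.4 in the 4 lists named without AS (left of the line) and at 45.7 to 48.5 in the 4 named with AS, while the grey ones stay between 67.3 and 72.6.

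AS-absent regions occurred on every chromosome with regions of all 4 lists. Chromosome 1 held the most, 161, followed by chromosome 19 with 154, chromosome 9 with 130, chromosome 17 with 128 and chromosome 12 with 125. As a share of the regions of all 4 lists named without AS, they were most frequent on chromosomes 9 (15.7%, 130 of 828), 22 (15.5%, 69 of 445) and 17 (15.1%, 128 of 849). They were least frequent on chromosomes X (5.57%, 27 of 485), 13 (7.45%, 24 of 322) and 5 (7.86%, 58 of 738). The median poorest percentile of all regions counted was 55.4 on chromosome 9, 51.6 on 22 and 50.6 on 17. It was 55.1 on chromosome X, 46.3 on 13 and 52.6 on 5. Whether the shares differ apart from score was not tested. The plus strand held 997 of the AS-absent regions (53.2%), against 51.1% of all regions of the 4 lists. Of the 5 AS-absent regions on chromosome Y, 3 had the same width and strand as one on chromosome X at a shift of 50000 bp. Whether the same reads were counted on both was not tested, and 1870 regions remained without chromosome Y.

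The peaks of AS-absent regions were alike in the 4 lists that held them. In 1854 (98.9%) each list had a single peak, and in 1491 of these (80.4%) start and end were the same in all 4 lists, against 82.4% for the other regions. Whether ends were set list by list is unknown, so equal ends and widths cannot be read as separate measurements in each list. In 1 AS-absent region a peak of a list named with AS lay over it on the opposite strand. Compared with regions found only in the lists named with AS, AS-absent regions had a poorer median of the poorest percentile (23.0 against 28.2, each over the 4 lists that held them), a larger median width (199 against 154 bp) and a larger share over 1000 bp (16.2% against 6.24%). A region of all 8 lists was within 10 kb of 20.1% of the former and 29.6% of the latter.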

How the data were processed

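For 8 of the 16 samples a list of peaks deposited by the authors was used, with a score of unstated unit per peak. Per the submitters' processing notes, cutadapt 1.9.3, HISAT2 2.0.4 and hg19 were used, without order or settings. The peak names begin with MACS, per the deposited lists. Not given in the sources used here are the caller's version, control, threshold and strand assignment.

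Peaks were joined by overlap of at least 1 bp on 1 strand. Score percentiles are midranks within a list, and a region with several peaks took its best. Joining, rule, loci and distances were tested on simulated data. The rule, its members and the choices here were made with earlier results of these data known. Named were the 8 loci with the most regions (ties by summed width), the 12 regions with the best poorest percentile (ties by extent), the 6 of largest joined extent, the median and the poorest one. Other runs, and the neighbours of all 8 lists, were chosen after values were seen. Gene names, fixed gene lists, U content and sequences were not analysed here, since the reference tables are of another build (GRCh38.p14). Precision is limited by having 2 lists per condition, and the unknown read depth is a further limit. Tools were matplotlib 3.10.9, scipy 1.17.1, pandas 2.3.3 and numpy 2.4.6 in Python 3.11.15.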

Additional observations from a re-analysis of the deposited data

How the results depend on the processing

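The count of 1875 AS-absent regions stayed within 1.5 times with strand ignored (1874), with joining only where 50% of the shorter peak overlapped (1879), at score minimums of 20 (1852) and 50 (1769), at equal list lengths (1402), without chromosome Y (1870, an alternative chosen after seeing the data) and without any 1 list (2028 to 2411). It was 2868 when a peak in 1 list named with AS was allowed, and 3241 when 3 lists named without AS sufficed. In the same order, those 2 settings gave a share of 17.4% and 15.8% of the regions named without AS, 178 and 206 loci of 3 or more, and a region of all 8 lists within 10 kb of 22.5% and 17.7%. The share of 11.4% was 12.3% and 14.6% at score minimums of 20 and 50, 9.74% at equal list lengths and 11.8% to 13.5% without any 1 list. The 95 loci of 3 or more became 63 at equal list lengths, 54 with gaps of 5 kb, 168 with gaps of 50 kb and 103 to 136 without any 1 list. The share of 20.1% with a region of all 8 lists nearby was 22.1% with strand ignored, 18.2% and 16.0% at score minimums of 20 and 50, 10.5% in a window of 5 kb, 45.6% in one of 50 kb, and 18.9% to 23.3% without any 1 list. Leaving out a list loosens the rule by construction.

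The difference in median percentile between K512R-1 and K512R-2 and WT-1 and WT-2 kept its direction under every alternative run, from 6.82 points at equal list lengths to 12.2 points without K512R-1. With the replicate number as a replicate block it was 11.7 points (exact sign-flip permutation p = 0.5, the smallest that 2 pairs can give), and on the log2 score 0.75. The labels do not say that equal numbers mark shared cultures. Scores tied at 3100 give the strongest regions no order.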
